A study of Mus musculus with 32 samples.

Results

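The insulin-like growth factor (IGF) genes are described here in the hearts of mice exposed to an aggressor mouse. The 10 genes are the ligands Igf1 and Igf2, the receptors Igf1r and Igf2r, and the binding proteins Igfbp2, Igfbp3, Igfbp4, Igfbp5, Igfbp6 and Igfbp7. They were chosen by symbol in the gene name column of the scanner files. They hold 10 of the 36409 gene names on the array and 15 of its 55681 probes. All 10 genes and all 15 probes passed the filter on dim probes, against 27532 genes and 38824 probes in all. The dimmer Igfbp2 probe passed it only through stressed hearts.

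IGF1 and IGF2 are small secreted proteins related to insulin that make cells grow, survive and divide. They act through IGF1R, a receptor tyrosine kinase that signals through the insulin receptor substrates, PI3 kinase and AKT, and in heart this pathway is known for growth of the heart muscle cell. IGF2R carries no kinase: it clears IGF2 and sorts lysosomal enzymes that bear mannose 6-phosphate. Binding proteins hold IGFs in the blood and tissue and are cut by proteases that free the ligand. Besides the liver, which answers to growth hormone, fibroblasts and macrophages are known sources of IGF1 in injured tissue.

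RNA was taken from individual hearts of 32 C57BL/6 mice, with 4 mice in each of 8 groups, and hybridised in 1 colour to Agilent mouse arrays. Stressed mice sat in wire mesh boxes placed with an aggressor, 6 hours each day, and were also attacked by it. This ran for 5 days with 1 day of rest (T5R1), 5 days with 10 days of rest (T5R10), 10 days with 1 day of rest (T10R1) or 10 days with 42 days of rest (T10R42). Each condition had its own controls, which sat in the same kind of box in a large cage without an aggressor. The exposure, a form of social defeat, was chosen to simulate posttraumatic stress disorder. The labels name heart tissue and no chamber, and no age of the mice is used here. Each condition was hybridised on a slide of its own, and slide and condition cannot be told apart. On every slide the stressed hearts lay on columns 3 and 4 and the control hearts on columns 1 and 2, so the place on the slide and stress cannot be told apart either.

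Between 28792 and 40672 probes were well above background on an array, and arrays of a group correlated at 0.976 to 0.992. In the quality report of the scan, 3 arrays carry a mark for evaluation: stressed replicates 1 and 2 and control replicate 4 of T5R10. All 10 cardiomyocyte markers were well above background in both arms of T5R1, among them Myh6, the main adult myosin heavy chain of the mouse heart. Levels are log2 signal minus the 75th percentile of the array, and differences are stressed minus control on that scale with the standard error (SE) of a limma fit over all arrays. A gene is called if its adjusted p is below 0.05 over all genes tested. Probes bind with different strength, so a level is compared within a probe and not between genes. In RNA of a whole tissue, fewer cells of a type and less RNA per cell cannot be told apart.

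The IGF genes held 1 call in T5R1 (Igfbp7, higher), where 13.7% of all genes were called and 5.3% were called higher. In T5R10 limma called 0 of the 10, against 0.0763% of all genes, in T10R1 0 against 1.13% and in T10R42 0 against 0.897%. At an unadjusted p below 0.05, 1 of the 10 was higher in T5R10 and 3 were higher in T10R42. In T10R1 4 were higher and 1 lower at that level. That level was passed by 3843, 3613 and 5166 of all 27532 genes in T5R10, T10R1 and T10R42, in either direction. The median difference over the 10 genes was 0.10 in T5R1, 0.05 in T5R10, 0.13 in T10R1 and 0.16 in T10R42, beside medians over all genes of -0.12, -0.02, 0.00 and -0.03. In T5R1 the median over all genes moved with the scaling, to -0.03 under quantile normalisation and -0.02 in the authors' deposited values, and of the 10 IGF genes 6 were measured higher in the main scaling and 7 in those. Differences whose sign turned under another scaling were small: Igf2 in T5R1, T5R10 and T10R1, Igf1r in T10R1, Igfbp4, Igfbp5 and Igfbp6 in T5R10, and Igfbp6 in T5R1. Arms did not overlap for 2 of the 10 in T5R1 (22.3% of all genes), 0 in T5R10 (5.84%), 4 in T10R1 (9.77%) and 3 in T10R42 (11.4%). These counts rest on the brightest probe of each gene, and for Igf1 the probes disagreed.

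**Figure D1:**
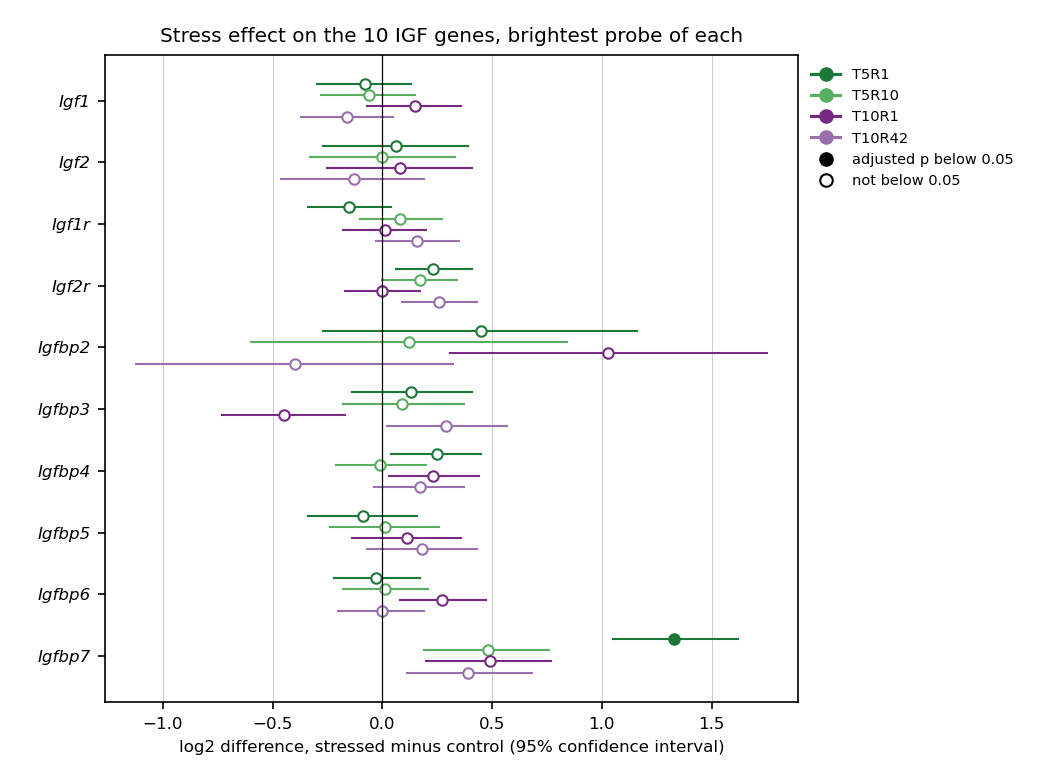
Stress effect on the 10 IGF genes by the brightest probe, as the log2 difference stressed minus control (horizontal axis) with its 95% confidence interval, 1 line per condition. Filled points have an adjusted p below 0.05 over all genes: Igfbp7 in T5R1 at 1.33 is the only one.

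Igf1, the circulating and local growth factor, has 5 probes of 60 bases, each spotted 2 times on the array. The array design places them on the plus strand of chromosome 10 of mm9. The brightest, at chr10:87378456-87378515, is assigned to the transcript NM_184052, an accession that the RefSeq gene table (GRCm38.p6) does not hold. The other 4 are assigned to NM_010512, which that table lists for Igf1, and start 15045 bases downstream. No mm9 gene model was used here, so exon or UTR is not stated. The stretches of 30 bases below, from 4 of the 5 probes, are shown because their probes gave different answers. The third NM_010512 probe is A_55_P2031636, at chr10:87395924-87395983. Capitals mark bases shared by the first and second probes on NM_010512, which overlap by 40 of their 60 bases and so are not independent measurements.
NM_184052 probe A_55_P2085979, bases 31 to 60, chr10:87378486-87378515: cctccccttcttaaaaatataaatcagagt
First NM_010512 probe A_55_P2085984, bases 16 to 45, chr10:87393576-87393605: taataAGTCCAATAACATTACAAAGATGGG
Second NM_010512 probe A_55_P2031631, bases 1 to 30, chr10:87393581-87393610: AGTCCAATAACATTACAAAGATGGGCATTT
The fourth NM_010512 probe, A_55_P2085974, bases 31 to 60, chr10:87399611-87399640: ttcatttatggcagagcaatatctgtccta

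Igf1 RNA read by the NM_010512 probes was higher 1 day after stress of either length, and close to the controls after 10 or 42 days of rest. The probe on NM_184052 showed no such difference. At the first NM_010512 probe the T5R1 level was 1.75, 1.28, 1.06 and 0.89 in stressed hearts, against -0.03, 0.03, 0.33 and 0.05 in control hearts. Each stressed heart lay above each control heart. The difference was 1.15 ± 0.14 (SE, n = 4 per arm), or 2.22-fold, with a limma adjusted p of 7.95e-06 over all 38824 probes. In T10R1 the level was 1.02, 0.64, 0.76 and 1.2 in stressed hearts, against -0.04, 0.11, 0.03 and 0.11 in control hearts, again without overlap. That difference was 0.85 ± 0.14, or 1.81-fold (limma adjusted p = 0.00295).

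After longer rest the same probe no longer separated the arms. In T5R10 its level was -0.02, -0.22, -0.09 and -0.04 in stressed hearts, against -0.11, 0.04, -0.20 and 0.13 in control hearts. In T10R42 it was 0.02, -0.24, 0.14 and 0.25 in stressed hearts, against 0.12, 0.04, 0.24 and 0.37 in control hearts. The differences were -0.06 (95% interval -0.35 to 0.24) and -0.15 (-0.44 to 0.15), neither past the threshold. The stress effect at this probe was lower in T5R10 than in T5R1 by -1.21 ± 0.20 (limma adjusted p = 0.00195), and lower in T10R42 than in T10R1 by -1.0 ± 0.20 (adjusted p = 0.0144). Between T10R1 and T5R1 the effect differed by -0.30 ± 0.20 (adjusted p = 0.472, 95% interval -0.71 to 0.12), and limma called 0 of the 5 probes in that comparison, where 0.358% of all probes were called.

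The second NM_010512 probe, which shares most of its bases with the first, rose by 1.18 ± 0.16 in T5R1 (limma adjusted p = 3.19e-05) and by 0.93 ± 0.16 in T10R1 (adjusted p = 0.00491). The fourth NM_010512 probe, which shares none, rose by 1.01 ± 0.16 in T5R1 (adjusted p = 0.000159) and by 0.84 ± 0.16 in T10R1 (adjusted p = 0.00927). The third NM_010512 probe, the dimmest, rose by 0.76 ± 0.13 in T10R1 (adjusted p = 0.00349) and stood at 0.33 ± 0.13 in T5R1 (adjusted p = 0.102). For all 4 of these probes the arms did not overlap in T5R1 or in T10R1. In T5R10 and T10R42 their differences lay between -0.17 and 0.04, and limma called 0 of the 5 Igf1 probes, where 0.0232% and 0.647% of all probes were called. In T5R1 3 of the 5 were called higher, where 11.8% of all probes were called and 4.41% called higher. In T10R1 4 of the 5 were called higher, where 0.793% were called and 0.559% called higher. In the mean of the 4 conditions 3 of the 5 were called (10.8% of all probes), at 0.45, 0.50 and 0.48, and the third NM_010512 probe stood at 0.19 (adjusted p = 0.0569).

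The stress effect at these probes also differed between the conditions with short and long rest, which lie on different slides. Between T5R10 and T5R1 the effect was lower by -1.19 ± 0.23 at the second (limma adjusted p = 0.00701) and by -0.97 ± 0.23 at the fourth NM_010512 probe (adjusted p = 0.0232), and the third stood at -0.48 ± 0.18 (adjusted p = 0.183). Between T10R42 and T10R1 it was lower by -1.03 ± 0.23 at the second (adjusted p = 0.0231), by -0.93 ± 0.18 at the third (adjusted p = 0.0134) and by -0.81 ± 0.23 at the fourth (adjusted p = 0.0498). Of all probes, 1.76% were called between T5R10 and T5R1 (0.958% lower) and 2.71% between T10R42 and T10R1 (1.48% lower). The last of these calls ended on leaving out any 1 of 15 of the 16 arrays, T10R1 stressed replicate 2 excepted, with values from -0.89 to -0.70. The call of the fourth probe in T10R1 ended without stressed replicate 1 (0.77, adjusted p = 0.0561). Its T5R10 against T5R1 call ended without T5R1 stressed replicate 1 (-0.78), control replicate 1 (-0.93) or control replicate 2 (-0.92). With the 8 arrays of T10R1 fitted alone, the 4 T10R1 calls ended at the same differences (adjusted p from 0.134 to 0.188).

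The probe on NM_184052 differed from the other 4 in T5R1 and T10R1. Its T5R1 level was 1.42, 1.60, 1.79 and 1.66 in stressed hearts, against 1.58, 1.76, 1.88 and 1.59 in control hearts, and the arms overlapped. In T10R1 it was 1.64, 1.56, 1.52 and 1.56 in stressed hearts, against 1.54, 1.37, 1.57 and 1.21 in control hearts. The differences were -0.08 in T5R1 (95% interval -0.30 to 0.13), -0.06 in T5R10, 0.15 in T10R1 (-0.07 to 0.36) and -0.16 in T10R42, with an adjusted p of at least 0.417 over all genes. In T10R42 all 4 stressed hearts, from 1.34 to 1.46, lay below all controls, from 1.48 to 1.61.

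The change at the 4 NM_010512 probes minus the change at the NM_184052 probe was then taken within each array, a comparison chosen after the values were seen. It was 1.00 ± 0.48 in stressed hearts and 0.00 ± 0.11 in control hearts of T5R1 (SD, n = 4 each), and 0.70 ± 0.24 against 0.00 ± 0.26 in T10R1. The arms did not overlap in either. The exact two-sided permutation p was 0.0286 in both, the smallest that 4 against 4 hearts allow, and 0.0572 after adjustment over the 4 conditions. In T5R10 the difference was 0.02 ± 0.29 in stressed hearts against 0.00 ± 0.15 (exact permutation p = 0.943), and in T10R42 0.06 ± 0.20 against 0.00 ± 0.17 (p = 0.657). With the mean of all 5 probes as the gene's value, Igf1 stood at 0.72 in T5R1 and 0.71 in T10R1 and was called in both (adjusted p = 4.25e-05 and 0.000552). What sets the NM_184052 probe apart was not tested.

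**Figure D2:**
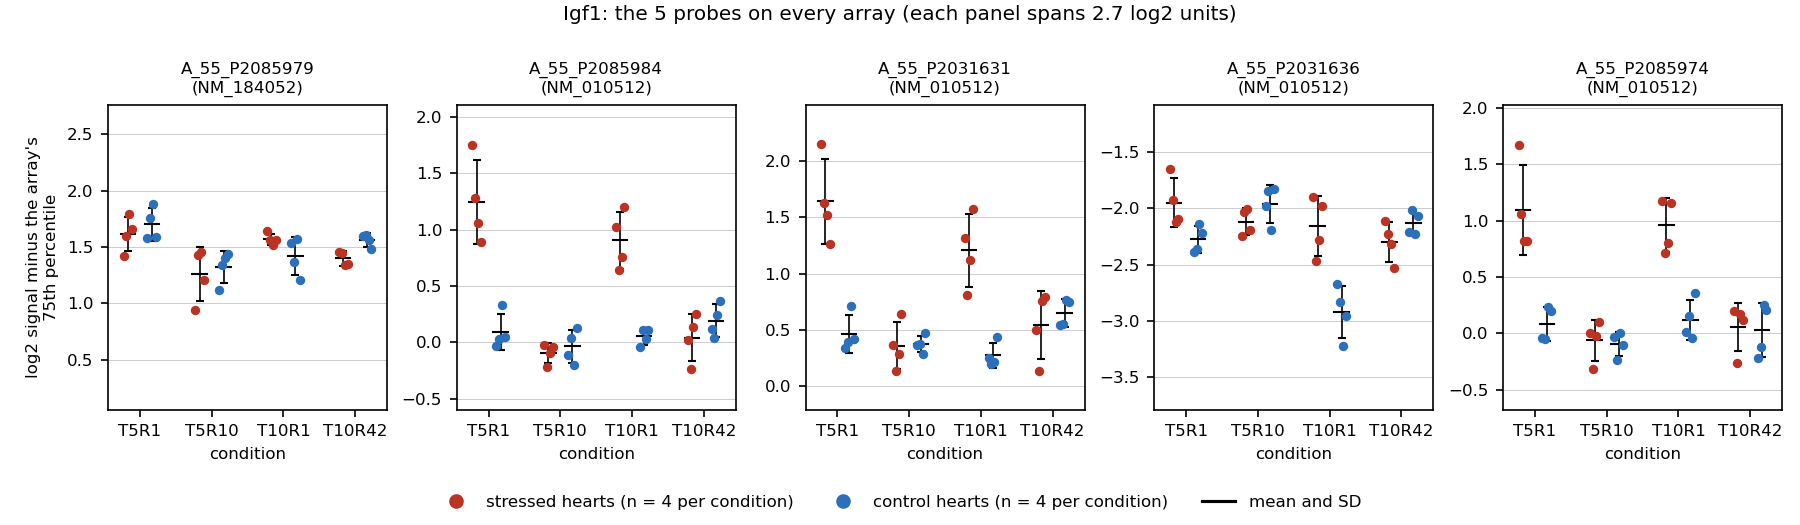
Level of the 5 Igf1 probes (panels) on each of the 32 arrays, as log2 signal minus the 75th percentile of the array, by condition. Points are hearts, lines and bars the mean and SD of 4; stressed hearts lie above the controls in T5R1 and T10R1 at the 4 NM_010512 probes, and overlap them in T5R1 and T10R1 at the NM_184052 probe.

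Cell type markers moved in the same conditions as these Igf1 probes, T5R1 and T10R1, where 13.7% and 1.13% of all genes were called. The medians over all genes there were -0.12 and 0.00, and the first moved with the scaling, as given above. Of 12 fibroblast markers limma called 7 higher in T5R1 and 8 in T10R1, with medians of 0.71 and 0.80. At an unadjusted p below 0.05, 9 of these markers were higher and 1 lower in T5R1. The log2 of their summed signal spanned 9.50 to 10.20 in stressed against 9.20 to 9.36 in control hearts of T5R1, and 9.58 to 10.02 against 9.20 to 9.29 in T10R1. Of 12 macrophage markers 8 were called higher in T5R1 and 1 in T10R1. At an unadjusted p below 0.05, 5 of these were higher and 1 lower in T10R1. Their summed level spanned 5.59 to 6.25 against 5.30 to 5.50 in T5R1 and 5.71 to 6.06 against 5.34 to 5.54 in T10R1. None of these 24 genes was below background on all arrays of a group. Adgre1, a surface receptor of mouse macrophages, rose by 0.92 ± 0.21 in T5R1 (limma adjusted p = 0.00378). Col1a1, which encodes collagen of the fibrous matrix, rose by 2.53 ± 0.30 (3.78e-06). After rest, in T5R10 and T10R42, 0 markers of either list were called by limma (0.0763% and 0.897% of all genes). Heart muscle and fat markers were measured lower in the same conditions. All 10 cardiomyocyte markers were measured lower in T5R1 (median -0.24, 1 called) and 8 of 10 in T10R1 (-0.12, 0 called by limma, 2 lower at an unadjusted p below 0.05), with summed levels of 12.39 to 12.84 in stressed against 12.79 to 12.87 in control hearts of T5R1. All 5 adipocyte markers were measured lower in T5R1 (median -1.35) and T10R1 (-1.11), with 0 called by limma and 2 and 0 lower at an unadjusted p below 0.05. Their summed level spanned 1.48 to 5.24 in stressed against 5.07 to 5.45 in control hearts of T5R1, and 2.41 to 4.19 against 4.17 to 5.35 in T10R1. All 5 atrial markers were measured lower in T5R1 (median -1.20) and 4 of 5 in T10R1 (-0.41), with 0 called by limma and 4 and 0 lower at an unadjusted p below 0.05. Their summed level spanned 9.10 to 10.26 in stressed against 9.84 to 10.61 in control hearts of T5R1. The part of any of these cells in the Igf1 values was not tested.

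The 3 genes whose pattern was most like the mean of the 4 NM_010512 probes were Ms4a7 (Pearson r = 0.962), a membrane protein of macrophages, its family member Ms4a14 (0.949) and Tmem45a (0.948). The measure covers 32 arrays, each value minus the control mean of its condition, and that probe mean was formed after seeing the data. Ms4a7 stood at 1.94 in T5R1, -0.09 in T5R10, 1.46 in T10R1 and 0.06 in T10R42. For the NM_184052 probe the most alike were Gm2976 (0.832), Pnma3 (0.816) and Pcdh11x (0.813). Arrays of a group share their treatment and slide, so these values are a description.

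Igf2, the growth factor that is abundant before birth and is expressed from the paternal copy in the mouse, showed no call. It was well above background on all 32 arrays. In T5R1 its level was -2.48, -2.23, -2.33 and -1.58 in stressed hearts, against -2.19, -2.46, -2.03 and -2.18 in control hearts. The arms overlapped there and in the other 3 conditions. Its differences were 0.06 ± 0.16 in T5R1, 0.00 ± 0.16 in T5R10, 0.08 ± 0.16 in T10R1 and -0.13 ± 0.16 in T10R42 (limma adjusted p of at least 0.697). The 95% intervals ran from -0.46 to 0.41 over all conditions. The most alike genes were Tcl1b2 (r = 0.723), Barhl1 (0.665) and Chst15 (0.663), the last a sulfotransferase of chondroitin.

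Igf1r, the kinase receptor, was measured slightly lower in T5R1 and higher in T10R42, and none of its differences was called. Stressed hearts of T5R1 read 1.33, 1.13, 1.15 and 1.15, against 1.39, 1.16, 1.46 and 1.34 in control hearts. In T10R42 stressed hearts read 1.30, 1.15, 1.25 and 1.41, against 1.25, 1.02, 1.21 and 1.00 in control hearts. The arms overlapped in all 4 conditions. The differences were -0.15 ± 0.09 (limma adjusted p = 0.287), 0.08 ± 0.09, 0.01 ± 0.09 and 0.16 ± 0.09 (adjusted p = 0.355) in T5R1, T5R10, T10R1 and T10R42. Most like it were Cdkn1b (r = 0.820), an inhibitor of the cell cycle and FoxO target, Fam168b (0.814) and Tmem50b (0.788).

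Igf2r, the receptor that clears IGF2, rose by a small amount in the mean of the 4 conditions. Its probe was spotted 10 times on the array, and the design gives it a position of only 11 bases on mm9, chr17:12875253-12875263 on the minus strand. The T5R1 level was 3.81, 3.53, 3.61 and 3.74 in stressed hearts, against 3.42, 3.45, 3.46 and 3.44 in control hearts. In T10R42 it was 3.65, 3.40, 3.72 and 3.68 in stressed hearts, against 3.29, 3.36, 3.39 and 3.37 in control hearts. In both, each stressed heart lay above each control heart. The differences were 0.23 ± 0.08 (limma adjusted p = 0.0641) and 0.26 ± 0.08 (adjusted p = 0.102), short of the threshold. T5R10 gave 0.17 ± 0.08 with overlap, and T10R1 gave 0.00 ± 0.08, with 3.67, 3.73, 3.71 and 3.84 in stressed hearts against 3.81, 3.76, 3.66 and 3.71 in control hearts.

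The mean of the 4 differences was 0.17 ± 0.04 for Igf2r (limma adjusted p = 0.0118), a comparison in which 12.6% of all genes were called and 5.26% called higher. It passed in all 43 alternatives, with values from 0.15 to 0.18. The T5R1 difference itself passed under 7 alternatives, among them the authors' deposited values (0.30, adjusted p = 0.00981), quantile normalisation (0.29, 0.0153) and leaving out stressed replicate 2 (0.28, 0.0383). The T10R42 difference passed without stressed replicate 2 (0.33, adjusted p = 0.0265) and with array weights (0.27). Most like Igf2r were Tns3 (r = 0.862), a protein of focal adhesions, Plekha2 (0.848) and Kpnb1 (0.847), a nuclear import receptor.

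Igfbp7, a secreted protein that binds IGFs weakly and is found in the matrix of vessels and many tissues, rose in T5R1. The level was 1.77, 1.42, 1.62 and 1.40 in stressed hearts, against 0.43, 0.06, 0.04 and 0.34 in control hearts. Every stressed heart lay above every control heart. The means were 1.55 ± 0.18 and 0.22 ± 0.20 (SD, n = 4 each), a difference of 1.33 ± 0.14 (SE) or 2.52-fold (limma adjusted p = 6.42e-07). The difference kept its call in all 20 alternatives, between 1.24 and 1.40. The stretch below comes from its only probe, at chr5:77778271-77778330 of mm9 on the minus strand and assigned to NM_001159518, and is shown because this probe carries the most stable call among the 10 genes. Capitals mark AATAAA, the letters of the common polyadenylation signal. The letters as given, without the other strand, occur in 10.9% of the 38824 probes kept, and on either strand in 14.2%.
Igfbp7 probe A_55_P2018611, bases 29 to 58, chr5:77778273-77778302: ttaaacaaaacaAATAAAattcttatcaca

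In the other conditions Igfbp7 was measured higher without a call. In T5R10 stressed hearts read -2.96, -3.46, -2.96 and -2.88, against -3.24, -3.62, -3.66 and -3.65 in control hearts. In T10R1 stressed hearts read 0.74, 0.41, 0.62 and 0.82, against 0.07, 0.14, 0.49 and -0.07 in control hearts. In T10R42 stressed hearts read -2.71, -2.75, -2.96 and -2.76, against -2.97, -3.17, -3.33 and -3.27 in control hearts. The arms overlapped by 1 heart in T5R10 and in T10R1. In T10R42 they did not overlap, but the closest stressed (-2.96) and control (-2.97) hearts differed by less than the spread within an arm. The differences were 0.48 ± 0.14 (limma adjusted p = 0.129), 0.49 ± 0.14 (0.089) and 0.39 ± 0.14 (0.128). Leaving out T5R10 stressed replicate 2 gave 0.61 (adjusted p = 0.0246), and leaving out T10R1 control replicate 3 gave 0.60 (0.04). Under normexp background correction, the Igfbp7 difference was 0.16 in T5R10 and 0.12 in T10R42, and in the authors' deposited values 0.33 and 0.28.

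The mean of the 4 Igfbp7 differences was 0.67 ± 0.07 (limma adjusted p = 1.43e-06). The effect was lower in T5R10 than in T5R1 by -0.86 ± 0.20 (adjusted p = 0.0176, where 2.49% of all genes were called and 1.31% called lower), and lower in T10R1 than in T5R1 by -0.84 ± 0.20 (adjusted p = 0.0453, 0.592% called and 0.232% called lower). The T5R10 against T5R1 call ended under quantile normalisation (-0.69, adjusted p = 0.129) and with only those conditions' arrays (-0.86, 0.0778). It also ended without T5R1 stressed replicate 1 (-0.78, adjusted p = 0.0538) and without the 3 marked arrays (-0.75, 0.0571). The T10R1 against T5R1 call ended on leaving out any 1 of 11 of the 16 arrays, with values from -0.92 to -0.73. It also ended under quantile normalisation (-0.89, adjusted p = 0.069), without the filter on dim probes (-0.84, 0.0743) and with the replicate block (-0.84, 0.0694). T10R42 and T10R1 differed by -0.10 ± 0.20 (adjusted p = 0.798).

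The level of Igfbp7 itself differed widely between slides. Control means were 0.22 in T5R1, -3.54 in T5R10, 0.16 in T10R1 and -3.19 in T10R42, a range of 3.76 log2 units, while the stressed means were 1.55, -3.07, 0.65 and -2.80. Only 0.392% of all genes had as wide a range of control means, and the median range was 0.55. The other 9 IGF genes had ranges from 0.32 (Igfbp4) to 1.14 (Igf2). In the authors' deposited values, which follow the spot signal before background subtraction, the control means were 8.95, 5.90, 8.90 and 5.99. Slide, time of rest and the mice themselves cannot be told apart in this difference. Before scaling, the Igfbp7 spot read 33.6 to 63.7 in stressed and 24 to 37.7 in control hearts of T5R10 and T10R42 together, in units of scanner intensity, and all 32 spots were well above background. In T5R1 and T10R1 it read 551 to 1700 in stressed and 361 to 494 in control hearts.

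**Figure D3:**
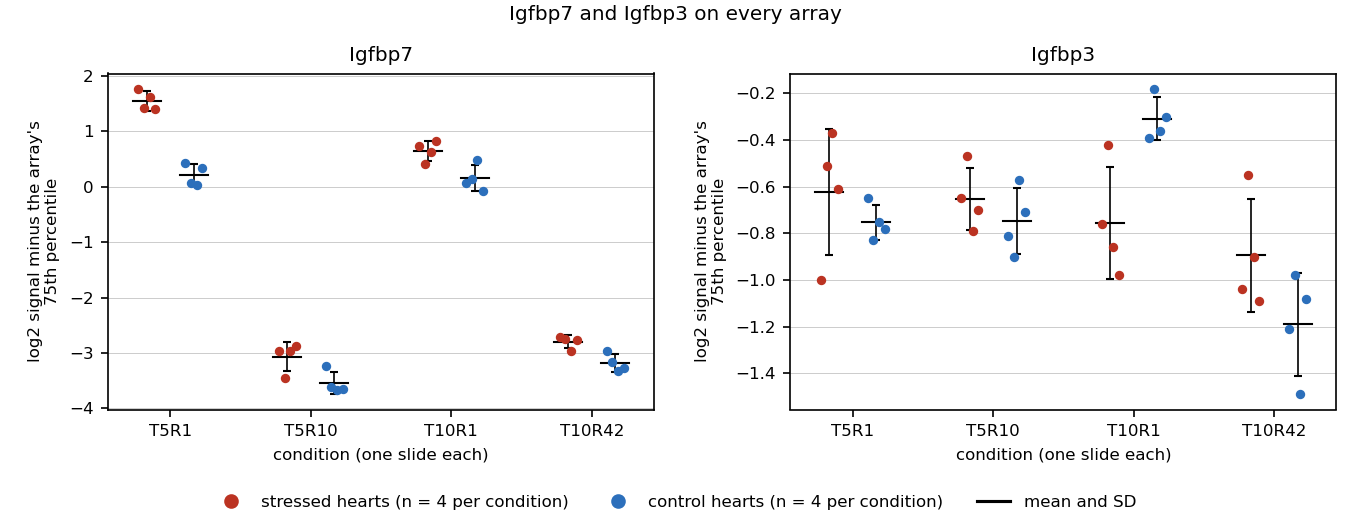
Level of Igfbp7 (left) and Igfbp3 (right) on each of the 32 arrays, as log2 signal minus the 75th percentile of the array, by condition. Points are hearts, lines and bars the mean and SD of 4; Igfbp7 of T5R1 stressed hearts lies between 1.40 and 1.77, above its controls, and all hearts lie at -2.71 or lower in T5R10 and T10R42.

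In T5R1 13.7% of all genes were called, and 5.3% called higher. Fibroblast and macrophage markers moved with Igfbp7 there, with 7 and 8 of 12 called higher as given for Igf1. Markers of dividing cells did too: 5 of 6 were called higher in T5R1, with a summed level of 2.18 to 2.85 in stressed against 0.09 to 0.21 in control hearts, and Pbk was above background on 0 of 4 control arrays. Of 5 erythroid markers 3 were called higher, with summed levels of 9.69 to 10.69 in stressed and 9.78 to 10.12 in control hearts. The part of these cells in the Igfbp7 values was not tested. Of 10 endothelial markers 0 were called by limma in T5R1 and 3 were lower at an unadjusted p below 0.05, with summed levels of 7.06 to 7.46 against 7.15 to 7.34. The genes most like Igfbp7 were Emp1 (r = 0.924), a membrane protein, Gpr153 (0.899) and Vim (0.887), the intermediate filament of fibroblasts and other mesenchymal cells. Emp1 stood at 1.42 in T5R1 and 0.56 in T10R1.

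Igfbp3, the main IGF carrier of the blood, had stress effects that differed between 1 day and 42 days of rest after 10 days of stress. Its probe lies at chr11:7106594-7106653 of mm9 on the minus strand. In T10R1 its level was -0.76, -0.42, -0.86 and -0.98 in stressed hearts, against -0.39, -0.18, -0.36 and -0.30 in control hearts, and each stressed heart lay below each control. In T10R42 it was -1.04, -0.55, -0.90 and -1.09 in stressed hearts, against -1.21, -0.98, -1.49 and -1.08 in control hearts, with overlap. The differences were -0.45 ± 0.13 (limma adjusted p = 0.11) and 0.29 ± 0.13 (0.233), neither past the threshold on its own. The difference between them was 0.74 ± 0.19 (adjusted p = 0.0324, where 4.12% of all genes were called and 1.89% called higher).

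That Igfbp3 call lay close to the threshold. Without the filter on dim probes it ended at 0.74 (limma adjusted p = 0.0511), and with only those conditions' arrays at 0.74 (0.0578). It also ended on leaving out T10R1 stressed replicate 1, 3 or 4, T10R42 stressed replicate 3, T10R1 control replicate 2 or 4, or T10R42 control replicate 1 or 3. The values then ran from 0.64 to 0.75, with adjusted p from 0.0515 to 0.0646. Without T10R1 stressed replicate 2 the T10R1 difference passed (-0.56, adjusted p = 0.0401). In T5R1 Igfbp3 stood at 0.13 ± 0.13 and in T5R10 at 0.09 ± 0.13, with overlapping arms. Among the most alike genes were Rbm33 (r = 0.812) and Anapc4 (0.789), a subunit of the anaphase-promoting complex. In the RefSeq gene table Igfbp3 lies next to Igfbp1, the IGF carrier made by liver, whose probes did not pass the filter.

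Igfbp4, a binding protein that holds IGFs until the protease PAPP-A cuts it, was higher over the 4 conditions together. In T10R1 its level was 0.95, 1.03, 1.04 and 1.12 in stressed hearts, against 0.75, 0.90, 0.80 and 0.76 in control hearts, without overlap. In T5R1 it was 1.42, 1.45, 1.18 and 1.42 in stressed hearts, against 1.18, 1.05, 1.04 and 1.21 in control hearts, where 1 stressed heart overlapped. The differences were 0.23 ± 0.10 (limma adjusted p = 0.304) and 0.25 ± 0.10 (adjusted p = 0.0969), while T5R10 gave -0.01 ± 0.10 and T10R42 0.17 ± 0.10.

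The mean of the 4 Igfbp4 differences was 0.16 ± 0.05 (limma adjusted p = 0.0364). This call ended in 14 of 43 alternatives, 12 of which left out 1 array, with an adjusted p of at most 0.0628. The T5R1 difference passed under normexp background correction (0.28, adjusted p = 0.0295) and under 3 other settings. Most like Igfbp4 were Serpine2 (r = 0.751), a protease inhibitor of fibroblasts, Igsf6 (0.744) and Cd34 (0.742), a surface protein of endothelial and progenitor cells. Together Igf2r, Igfbp4 and Igfbp7 were the IGF genes called in the mean of the 4 conditions.

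Igfbp2, a binding protein made by many fetal tissues, was dim and uneven. In T10R1 its brighter probe read -2.82, -2.67, -2.12 and -3.47 in stressed hearts, against -3.72, -3.73, -3.55 and -4.20 in control hearts. All stressed hearts lay above all controls, and the difference was 1.03 ± 0.35 (limma adjusted p = 0.17). It was 0.45 under normexp background correction and 0.65 in the authors' deposited values. The second probe was above background on 13 arrays. It passed the filter only through stressed hearts, so a split of its arms is no support for the first probe. In T10R1 it was well above background on 3 of 4 stressed and 0 of 4 control arrays. With control values raised to the lowest level well above background on their array, the stressed mean lay 2.99-fold above the control mean. That fold is a lower bound, and the difference was not called (limma adjusted p = 0.365 over all probes). The means of this probe in T10R1 were -3.58 in stressed and -5.18 in control hearts.

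In T10R42 the brighter Igfbp2 probe read -3.70, -3.93, -4.17 and -3.28 in stressed hearts, against -1.91, -3.88, -3.90 and -3.81 in control hearts. The first control stood far above the other 3, and the difference was -0.40 ± 0.35, or 0.09 without that control. T5R1 gave 0.45 ± 0.35 and T5R10 0.12 ± 0.35, with overlap. The T10R42 against T10R1 difference was -1.43 ± 0.49 (limma adjusted p = 0.0888), -0.94 without that control and -0.62 under normexp background correction. Without T10R42 control replicate 1 the mean of the 4 conditions passed (0.42, adjusted p = 0.0426), against 0.30 with it (0.255). The most alike genes were the chitinase-like Chil3 (r = 0.759), a macrophage product, Chil1 (0.727) and Fam163b (0.690).

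Igfbp5, which lies next to Igfbp2 in the RefSeq gene table and binds matrix, showed no call. Its arms overlapped in all 4 conditions. T5R1 stressed hearts read 3.24, 3.21, 2.92 and 3.57, against 3.32, 3.37, 3.36 and 3.25 in control hearts. The differences were -0.09 ± 0.12, 0.01 ± 0.12, 0.11 ± 0.12 and 0.18 ± 0.12 in T5R1, T5R10, T10R1 and T10R42 (limma adjusted p of at least 0.449). Most like it were Foxp1 (r = 0.678) and the estrogen receptor gene Esr1 (0.669), followed by H2-Q7 (0.643).

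Igfbp6, which binds IGF2 more tightly than IGF1, was measured higher in T10R1 without a call. There stressed hearts read 4.29, 4.32, 4.39 and 4.49, against 4.13, 4.18, 4.13 and 3.94 in control hearts. The arms did not overlap, and the difference was 0.27 ± 0.10 (limma adjusted p = 0.185). It was -0.03 ± 0.10 in T5R1, 0.01 ± 0.10 in T5R10 and 0.00 ± 0.10 in T10R42, with overlap in each. Among the genes most like it were Nbl1 (r = 0.768), a secreted BMP antagonist, and Lbp (0.718), which binds bacterial lipopolysaccharide.

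**Figure D4:**
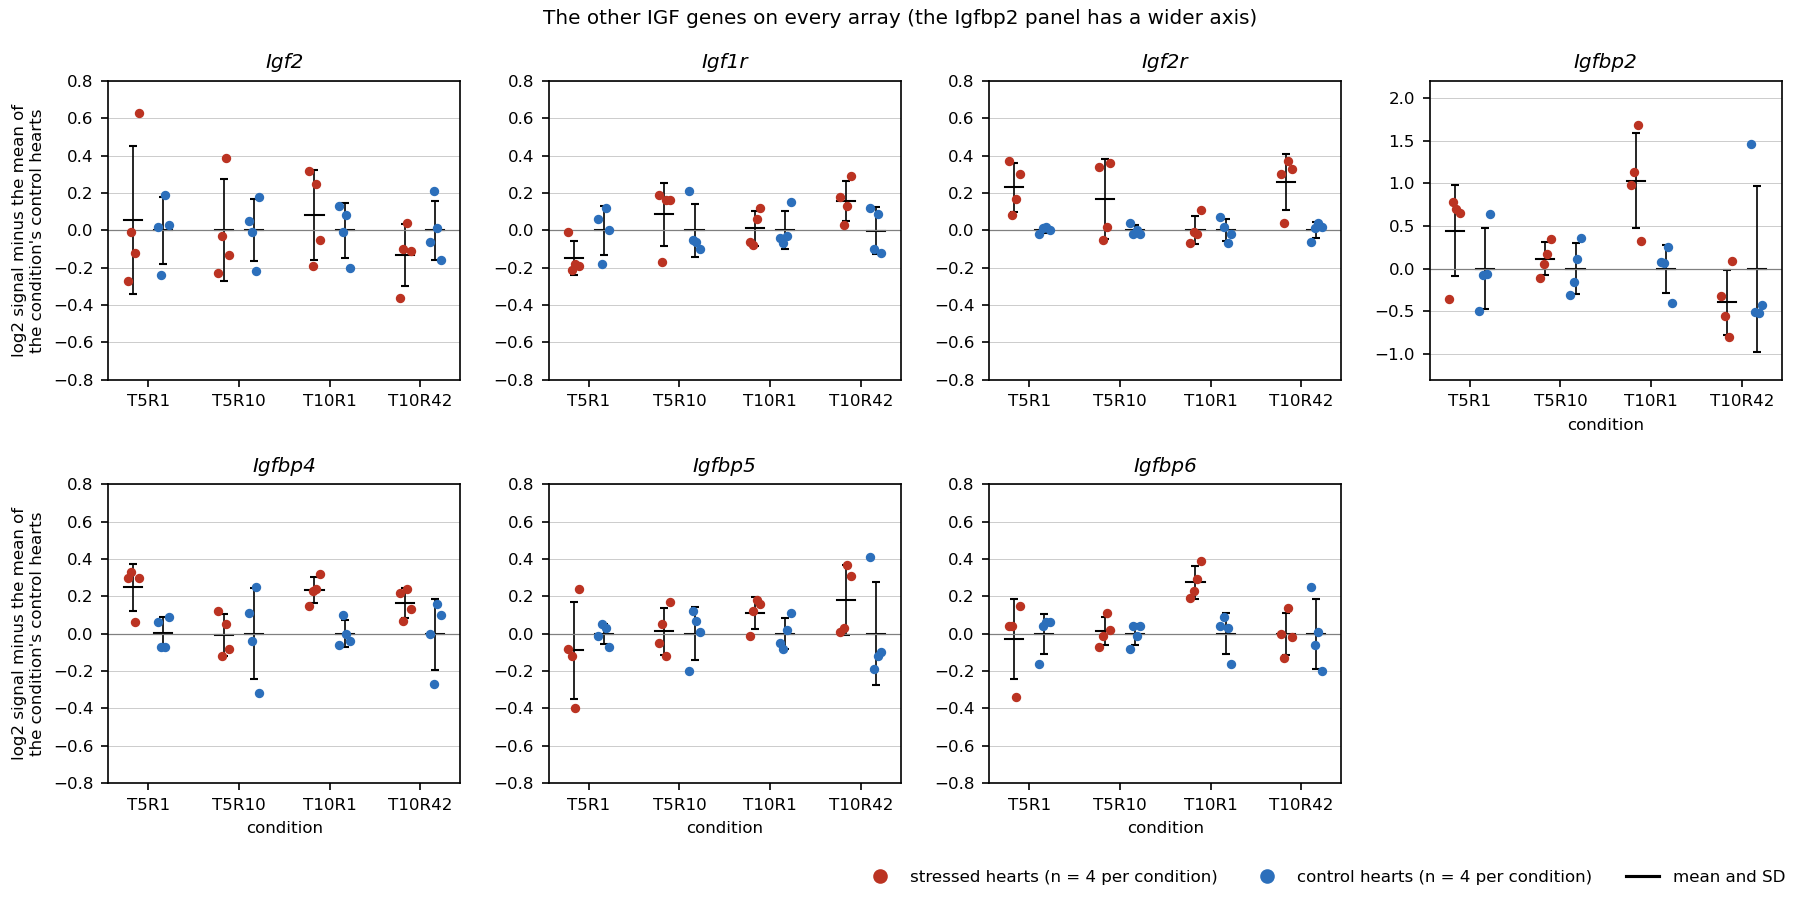
The other 7 IGF genes on each of the 32 arrays, as log2 signal minus the mean of the 4 control hearts of the condition; the Igfbp2 panel has a wider axis. Points are hearts, lines and bars the mean and SD of 4; Igf2r of stressed hearts lies above its controls in T5R1 and T10R42, Igfbp2, Igfbp4 and Igfbp6 in T10R1.

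Other genes of the pathway gave few calls in T5R1, in a share like that of all genes. Over 8 lists, 92 genes were tested, and 7 were called higher and 6 lower in T5R1, 14.1% against 13.7% of all genes. In T5R10 limma called 0 of the 92, in T10R1 1 higher and in T10R42 1 higher. Of all genes 0.0763%, 1.13% and 0.897% were called in these conditions, which is the background for each list below. At an unadjusted p below 0.05, 10 were higher and 21 lower in T5R1, and 13 higher and 1 lower in T5R10. In T10R1 5 were higher and 9 lower at that level, and in T10R42 13 higher and 2 lower. Of all 27532 genes, 8126, 3843, 3613 and 5166 passed it in these conditions, in either direction. The carrier and release proteins had 7 tested genes, of which 1 was called lower in T5R1. Their median was -0.23, beside -0.12 over all genes. The called gene was Htra1, a secreted protease that cuts IGF-binding proteins, at -0.49 ± 0.12 (limma adjusted p = 0.00623). Its level was 4.88 ± 0.07 in stressed and 5.36 ± 0.15 in control hearts (SD, n = 4 each), without overlap. In the other conditions 0 of these 7 were called by limma, and the smallest p belonged to Stc2 in T5R10 (0.23 ± 0.16), Htra3 in T10R1 (0.46 ± 0.14) and Pappa2 in T10R42 (-0.37 ± 0.19).

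Of 36 genes of insulin and IGF signalling, 5 were called lower and 0 higher in T5R1. Their median was -0.05, beside -0.12 over all genes. Over all genes 13.7% were called there, and 5.3% called higher. The share of lower calls over all genes moved with the scaling, as given in the last section. Akt2, the kinase isoform of insulin action, was lower by -0.37 ± 0.08 (limma adjusted p = 0.00181), at 4.39 ± 0.08 in stressed and 4.76 ± 0.04 in control hearts. Irs3, an insulin receptor substrate, stood at -0.77 ± 0.20 (adjusted p = 0.00929) with overlapping arms, and Pdpk1, the kinase that activates AKT, at -0.29 ± 0.08 (0.0114). In T10R42 Insr, the insulin receptor, rose by 0.38 ± 0.08 (adjusted p = 0.0264), at 0.97 ± 0.10 in stressed and 0.59 ± 0.09 in control hearts, without overlap. Its effect was higher in T10R42 than in T10R1 by 0.50 ± 0.11 (adjusted p = 0.0209). In T5R10 and T10R1 0 of the 36 were called by limma, with the smallest p for Insr in T5R10 (0.24 ± 0.08, adjusted p = 0.184) and Akt2 in T10R1 (-0.29 ± 0.08, 0.0683).

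The growth hormone axis (8 genes) and the FoxO target genes (18 genes), which FoxO factors switch on when IGF signalling is low, had 0 calls by limma in every condition. Over all genes 13.7%, 0.0763%, 1.13% and 0.897% were called in T5R1, T5R10, T10R1 and T10R42. All 8 growth hormone axis genes were measured higher in T10R42, with a median of 0.24 beside -0.03 over all genes. Among them the smallest p was that of Ghr, the growth hormone receptor, in T5R1 (-0.24 ± 0.08, adjusted p = 0.0607), Stat5b in T5R10 (0.21 ± 0.10), Socs3 in T10R1 (-0.94 ± 0.31, 0.149) and Socs2 in T10R42 (0.30 ± 0.13). The effect on Stat5b, which carries the growth hormone signal, was higher in T10R42 than in T10R1 by 0.52 ± 0.15 (adjusted p = 0.0465). In that comparison 4.12% of all genes were called, and 1.89% called higher. Of the FoxO targets 15 of 18 were measured lower in T5R1 and 16 of 18 higher in T5R10, with medians of -0.16 and 0.16 beside -0.12 and -0.02 over all genes. At an unadjusted p below 0.05, 3 FoxO targets were lower in T5R1 and 2 higher in T5R10. Of all 27532 genes, 8126 and 3843 passed that level there, in either direction. The smallest p belonged to Pdk4, a brake on glucose oxidation, in T5R1 (-0.93 ± 0.32, adjusted p = 0.0509), Gadd45a in T5R10 (0.39 ± 0.15), Sod2 in T10R1 (-0.21 ± 0.08) and Cdkn1b in T10R42 (0.25 ± 0.10).

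Of 4 genes of the mannose 6-phosphate pathway, the sorting route that IGF2R serves, 2 were called higher in T5R1. The share of all genes called higher there was 5.3%. Gnptab, which makes the mannose 6-phosphate tag, rose by 0.36 ± 0.09 (limma adjusted p = 0.0113), and M6pr, the smaller receptor of the tag, by 0.21 ± 0.06 (0.0279). Both had stressed hearts above all controls. In the other conditions limma called 0 of the 4, with the smallest p for Gnptab in T5R10 (0.33 ± 0.09) and T10R42 (0.26 ± 0.09) and for M6pr in T10R1 (-0.15 ± 0.06).

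Of 13 tested genes of the imprinted growth network, in which Igf2 and its neighbour H19 take part, 3 were called higher in T5R1. Over all genes that share was 5.3%. Mest rose by 1.41 ± 0.22 (limma adjusted p = 0.000113), with 0.73 ± 0.60 in stressed and -0.68 ± 0.13 in control hearts. Gatm, the first enzyme of creatine synthesis, rose by 1.06 ± 0.23 (0.00246), and H19, a noncoding RNA abundant before birth, by 0.59 ± 0.18 (0.0262). The effect on Mest was lower in T5R10 than in T5R1 by -1.37 ± 0.31 (adjusted p = 0.0176), and that on H19 lower in T10R42 than in T10R1 by -1.01 ± 0.25 (0.0285). Elsewhere limma called 0 of the 13 in a condition, with the smallest p for Ndn in T5R10 (-0.14 ± 0.11), Dcn in T10R1 (0.29 ± 0.08) and H19 in T10R42 (-0.46 ± 0.18). Of the 3 IGF2 mRNA-binding proteins only Igf2bp2 was tested, at -0.25 ± 0.16, -0.42 ± 0.16, -0.09 ± 0.16 and 0.03 ± 0.16 in T5R1, T5R10, T10R1 and T10R42, none of them called.

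The CCN family of matrix proteins, whose N-terminal part resembles that of IGF-binding proteins, had 5 tested genes. In T5R1 2 were called higher, Ccn5 by 1.11 ± 0.15 (limma adjusted p = 1.67e-05) and Ccn4 by 1.30 ± 0.36 (0.0175, overlapping arms). The share of all genes called higher there was 5.3%. In T10R1 Ccn5 rose by 1.23 ± 0.15 (adjusted p = 4.4e-05), with 1.60 ± 0.17 in stressed and 0.36 ± 0.24 in control hearts. Its effect was lower in T10R42 than in T10R1 by -0.95 ± 0.21 (adjusted p = 0.0189). In T5R10 Ccn5 stood at 0.48 ± 0.15 (adjusted p = 0.154) with arms that did not overlap, and in T10R42 at 0.28 ± 0.15 (0.303).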

How the data were processed

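Arrays were read from the scanner output, where the deposited values are intensity. Agilent Feature Extraction 10.7.3.1 subtracted background and trend from each spot, per the file headers. Flags for spots that are well above background, saturated or outlying were other columns of the deposited files. The authors' value table is on a log2 scale, follows the mean signal before background subtraction, and served as an alternative. Its normalisation is not named in the sources used here. Its sorted columns differ from the mean of their slide by at most 0.005343, and from the mean of all slides by up to 0.3425. This is the form that quantile normalisation within each slide gives. Groups come from the labels.

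Of the 62976 spots, 3671 controls and 5470 outliers were left out, and spots of a probe averaged. The 75th percentile of an array was subtracted from its log2 processed signals. Probes well above background on at least 3 of 4 arrays of a group and missing on at most 4 arrays were kept. The brightest probe stood for a gene, and a second fit took all 38824 kept probes. limma 3.58.1 (R 4.3.3) fitted 8 group means over 32 arrays, with two-sided p adjusted by Benjamini-Hochberg. The fit was tested on simulated data.

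The 10 genes and all lists were chosen with earlier results of these data known. All 10 are named. Of each pathway list up to 3 called genes per direction and condition are named, or the one with the smallest p, and for each IGF gene the 3 most alike, except for items that are not reported here. Replicate numbers did not pair the samples (correlations of same-numbered deviations from -0.266 to 0.214). Alternatives were normexp correction (offset 50), other scalings and filters, the mean of all probes, replicate and slide row blocks, array weights, the authors' values, condition-only fits, and leaving out arrays. The number of arrays limits the precision.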

Additional observations from a re-analysis of the deposited data

Results flagged for a closer look

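For 7 Igf1 probe comparisons the stress effect differed between conditions by the fit over all probes. At A_55_P2085984 it was -1.21 between T5R10 and T5R1 and -1.0 between T10R42 and T10R1. At A_55_P2031631 the values were -1.19 and -1.03, and at A_55_P2085974 they were -0.97 and -0.81. At A_55_P2031636 the T10R42 against T10R1 value was -0.93. By the fit over genes the effect on Igfbp7 differed by -0.86 between T5R10 and T5R1 and by -0.84 between T10R1 and T5R1, and that on Igfbp3 by 0.74 between T10R42 and T10R1.

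Single arrays stood far from the other 3 of their group in 13 of 120 sets of 4 arrays, by Dixon's test at the 95% level, which chance alone passes in about 5% of sets. For the brighter Igfbp2 probe these were T10R42 control replicate 1, at -1.91 with the others between -3.90 and -3.81, and T5R1 stressed replicate 1, at -3.73 with the others between -2.73 and -2.60. At the dimmer Igfbp2 probe the same T5R1 heart stood at -4.30, with the others between -2.94 and -2.72. For Igf1r T5R1 stressed replicate 1 stood at 1.33, T5R10 stressed replicate 2 at 1.12, T5R10 control replicate 1 at 1.49 and T10R1 control replicate 4 at 1.62. For Igfbp7 T5R10 stressed replicate 2 stood at -3.46 and T5R10 control replicate 1 at -3.24. The remaining 4 were the fourth NM_010512 probe of Igf1 in T10R42 stressed replicate 2 (-0.26), Igfbp4 in T5R1 stressed replicate 3 (1.18), Igfbp5 in T10R42 control replicate 1 (3.6) and Igfbp6 in T5R1 control replicate 1 (3.70). T5R10 stressed replicate 2 is one of the arrays marked for evaluation.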

How the results depend on the processing

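Of 2070 alternative values for single genes 1996 kept direction and side of the threshold, 42 lost a call, 29 gained one and 3 reversed, and of 1393 for single probes 1351 kept both, 31 lost a call and 11 gained one. The 3 reversed values all belong to Igf1 under the mean of all 5 probes, which by construction weights the 4 NM_010512 probes most: 0.72 in T5R1, -0.77 for T5R10 against T5R1 and 0.31 in the mean of conditions. The number of IGF genes called in T5R1, 1 in the report, was 2 with every probe tested, quantile normalisation, the authors' values, the mean of probes, slide row as a block or without the marked arrays, and 3 with normexp, the 75th percentile over probes above background on every array, or array weights. In T5R10 it was 1 without the marked arrays. In T10R1 it was 1 with every probe, normexp, that percentile, the authors' values or the mean of probes, and 2 with array weights, as in T10R42. Between T5R10 and T5R1 (1 in the report) it was 2 with every probe or the mean of probes, and 0 with quantile normalisation, without the marked arrays or with only those conditions' arrays. Between T10R42 and T10R1 (1) it was 2 with every probe, the mean of probes, the replicate block or array weights, and 0 without the filter or with only those arrays. Between T10R1 and T5R1 (1) it was 0 with every probe, quantile normalisation, no filter or the replicate block, and 2 with array weights. Of all genes, T5R10 had 21 calls, against 86 with quantile normalisation, 33 with the authors' values, 9 without the filter, 0 with the replicate block, 9 with slide row, 3 with array weights, 1088 without the marked arrays and 0 with only its arrays. T10R1 had 312, against 185 with quantile normalisation, 181 without the filter, 1037 with array weights and 4 with only its arrays. T10R42 had 247, against 97 with normexp, 375 with quantile normalisation, 492 with the other percentile, 127 with the authors' values, 119 without the filter, 2341 with array weights, 508 without the marked arrays and 0 with only its arrays. T5R10 against T5R1 had 686, against 392 without the filter, 396 with the replicate block and 209 with only those arrays. T10R42 against T10R1 had 1135, against 539 with quantile normalisation, 670 with the authors' values, 451 without the filter and 4070 with array weights. T10R1 against T5R1 had 163, against 73 with quantile normalisation, 12 without the filter, 33 with the replicate block, 296 with slide row, 1803 with array weights, 371 without the marked arrays and 546 with only those arrays. Leaving out 1 array gave 2177 to 3835 calls in T5R1, 5 to 606 in T5R10, 86 to 298 in T10R1, 34 to 1444 in T10R42, 311 to 1062, 305 to 2093 and 11 to 321 in the 3 differences in that order, and 2589 to 4276 in the mean; of the IGF genes, 1 to 2 in T5R1, 0 to 1 in the other conditions and differences, and 2 to 4 in the mean. Of all genes called, 61.4% were lower in T5R1, against 36.5% with quantile normalisation, 45.2% with the other percentile and 38.7% with the authors' values. That share was 71.4% in T5R10 (43% quantile, 92.9% normexp, 91.7% other percentile), 31.7% in T10R1 (21.6% quantile, 14.7% other percentile) and 68% in T10R42 (48% quantile, 86.6% other percentile). The replicate numbers did not pair the samples, and of the single IGF genes the replicate block ended the Igfbp7 call between T10R1 and T5R1 (-0.84, adjusted p = 0.0694) and gave one to Igfbp2 between T10R42 and T10R1 (-1.43, 0.0495). The cause of these changes was not tested. Dim probes limit the precision: the brighter Igfbp2 probe was well above background on 30 of 32 arrays.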
